A study of Mus musculus with 4 samples.

Results

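Described here are 10 genes of Notch signalling in the endothelial, mural and epithelial cells of the injured mouse kidney. They were chosen by gene symbol out of the 57132 genes of each count matrix. They are the receptors Notch1, Notch2, Notch3 and Notch4, the ligands Dll4, Jag1 and Jag2, and the target genes Hes1, Hey1 and Heyl.

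All 10 genes had UMIs. Each belongs to a pathway in which a ligand on one cell binds a receptor on its neighbour. The bound receptor is cut first by the protease Adam10 and then by the gamma-secretase complex, and the freed intracellular part enters the nucleus, where it joins the DNA-binding protein Rbpj and a Mastermind coactivator to switch on genes of the Hes and Hey families. In blood vessels the pathway is known for the choice between tip and stalk cells, for arterial identity and for the upkeep of smooth muscle and pericytes. In the kidney it is known for the patterning of the nephron and for the balance between principal and intercalated cells of the collecting duct.

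The samples were kidneys of 4 wild type mice after induction of CIAKI, short for contrast-induced acute kidney injury, in which radiographic contrast medium damages the organ. Each kidney was dissociated and sequenced as 1 droplet single-cell library (10x Genomics), and the labels place all 4 in batch 1. Each library is called 1 mouse here, since the labels number the samples without naming the animals. The sources used here do not give the contrast agent, its dose, the time of collection or the age of the animals. The 4 mice form 1 group without an uninjured one, so every comparison below is between cell classes of the same injured kidneys, and none measures the effect of contrast.

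The matrices held 48213 barcodes and 273788487 UMIs (unique molecular identifiers, each standing for 1 captured RNA molecule), between 36831995 and 105436725 per mouse, and 40826 cells were kept. In depth mouse 4 stood apart, with a median of 2077 UMIs per cell against 5549 to 5777 in mice 1 to 3. Its median ribosomal share was 13.7% against 1.48% to 2.35%. Between 1 and 94 barcodes per library also occurred in another library. Cells were clustered without the genes of the pathway and named by marker genes, so each class name stands for cells like the named type. Of 39 clusters, 6 holding 2798 cells stayed unnamed, as did 2523 of 8249 endothelial cells and 2017 of 8030 tubular cells after re-clustering. Before re-clustering, many clusters followed the mouse. Endothelial clusters were mostly of mouse 3 (2726 of 2736 cells), of mouse 4 (1840 of 2188) or of mice 1 and 2 (620 and 1445 of 2137). The largest neutrophil cluster held 1727, 2742, 0 and 140 cells of mice 1 to 4. The cause was not tested. The doublet caller marked 113 cells, 111 of them in mouse 2, so almost none were removed from the other libraries and doublets may remain there. Levels are in CPM, the UMIs of a gene per 1000000 UMIs of a class in 1 mouse, with the mean and SD over the 4 mice, and they cannot tell fewer expressing cells from less RNA per cell. With the mouse as a block, p-values weigh the difference between classes of the same mouse against a spread over these 4 samples. That spread is pooled over genes, so the p-values rest largely on other genes, and almost wholly so in arterial against peritubular endothelium.

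The mural class held smooth muscle, pericyte, mesangial and renin cells, with 88, 172, 1226 and 12 cells in mice 1 to 4, and the endothelial class 926, 1841, 3563 and 1919. Among endothelial cells, 10, 11, 42 and 42 were arterial, 77, 74, 180 and 19 glomerular, 24, 24, 120 and 49 of the descending vasa recta and 458, 1089, 2062 and 1423 peritubular. The summed smooth muscle markers ran from 13379 to 21356 CPM in mural cells, and the summed endothelial markers from 284 to 730.4 CPM in mural against 7934 to 14553 in endothelial cells. The 12 mural cells of mouse 4 were rich in renin: Ren1 took 19.3% of their UMIs, against 4.72%, 4.53% and 0.687% in mice 1, 2 and 3, and Myh11, the smooth muscle myosin, stood at 410.3 CPM against 1920.2 to 4801. The smooth muscle subclusters, described apart, held 31, 41 and 225 cells in mice 1 to 3 and 2 in mouse 4, whose level is not given. On re-clustering the stroma, which took in fibroblasts too, 56 cells fell into a subcluster led by endothelial genes, 53 into one led by macrophage genes, 22 by neutrophil and 19 by T lymphocyte genes; their part in the stromal levels was not tested.

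The receptors fell into different cell classes. Notch3, the receptor of smooth muscle and pericytes, stood at 1459.6, 1162, 759.5 and 492 CPM in the mural cells of mice 1 to 4, against 0.376, 1.34, 2.92 and 0.246 in endothelial cells. Every mural value lay above every endothelial value, and mouse 4 was the lowest of the mural values with 30 UMIs. The mean was 968 ± 428 CPM in mural and 1.22 ± 1.23 in endothelial cells (SD, n = 4 mice), and the log2 fold change was 9.42 (SE 0.56, adjusted p = 2.5e-08) by edgeR's quasi-likelihood test with Benjamini-Hochberg adjustment. The smooth muscle subclusters had 925 ± 245 CPM (3 mice), and fibroblasts came next with 269, 173, 122 and 116. The fibroblast class also carried smooth muscle markers, whose values are given below, and their part in its Notch3 level was not tested. In the order of 18 classes, mural cells, then fibroblasts, then all others formed separate steps with no overlap between mice, and no other class had a mean above 11.8 CPM. Of mural cells, 86.7% ± 9.53 had a Notch3 UMI, against 0.552% ± 0.516 of endothelial cells. With every cell thinned to 1000 UMIs the shares were 53.4% and 0.0985%, leaving out 90 mural and 749 endothelial cells, whose median depth per mouse was 3672 to 10487 UMIs in mural and 1977 to 6491 in endothelial cells.

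Notch1, a receptor of endothelium and many other cells, and Notch4, a receptor largely of endothelium, were lower in mural than in endothelial cells. Notch1 stood at 71.8, 98.2, 101 and 0 CPM in mural cells, against 252, 278, 251 and 108 in endothelial cells. The classes did not overlap, although the highest mural and the lowest endothelial value, that of mouse 4, lay close together; the 0 in mural cells of mouse 4 allows up to 3 UMIs, or 49.2 CPM. Notch1 was lower in mural cells in 4 of 4 mice, with a log2 fold change of -1.67 (SE 0.28, adjusted p = 3.3e-04) by edgeR's quasi-likelihood test, and its adjusted p was 0.0751 in edgeR's test without the mouse as a block. Notch4 stood at 7.39, 8.93, 6.75 and 65.7 CPM in mural cells, against 123, 132, 74.7 and 99.8 in endothelial cells, with 4 UMIs behind the mural value of mouse 4. The log2 fold change of Notch4 was -3.56 (SE 0.34, adjusted p = 1.4e-06) by edgeR's quasi-likelihood test.

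Within the endothelium Notch4 was highest in the descending vasa recta, the vessels that carry blood into the medulla, at 187, 200.4, 171 and 177 CPM. It stood at 189.7, 115, 66.5 and 95.2 in arterial, 124, 134, 76.5 and 102 in peritubular and 117, 145, 57.8 and 36.2 in glomerular endothelium. The vasa recta values of 3 mice lay below the arterial value of mouse 1, so neighbours in the order overlapped. Notch1 averaged 266 ± 89.1 CPM in glomerular, 246 ± 82.5 in vasa recta, 228 ± 125 in arterial and 213 ± 75.9 in peritubular endothelium (SD, n = 4 mice), all 4 overlapping. Mouse 4 was the lowest in each of these 4 classes for Notch1.

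Notch2, a receptor needed for nephron patterning, was low in endothelium and in intercalated cells, and higher in mural cells, myeloid cells and most of the nephron. It stood at 263, 157, 226 and 98.5 CPM in mural cells, against 22.7, 15.9, 9.08 and 4.67 in endothelial cells, without overlap. The log2 fold change was 3.83 (SE 0.27, adjusted p = 1.0e-07) by edgeR's quasi-likelihood test. The smooth muscle subclusters had 359.6 ± 112 CPM (3 mice). Of the 18 classes neutrophils had the highest mean, 326 ± 91.6 CPM, and macrophages and monocytes had 139 ± 60.7. Podocytes averaged 114 ± 31.9, capsule epithelium 82.3 ± 6.90, thin limb 67.8 ± 27.6, principal cells 62.4 ± 20.8 and proximal tubule 60.6 ± 38.1 CPM (SD, n = 4 mice). Each of these neighbours overlapped with the next. The class called principal cells here and below also took in connecting tubule cells.

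**Figure D1:**
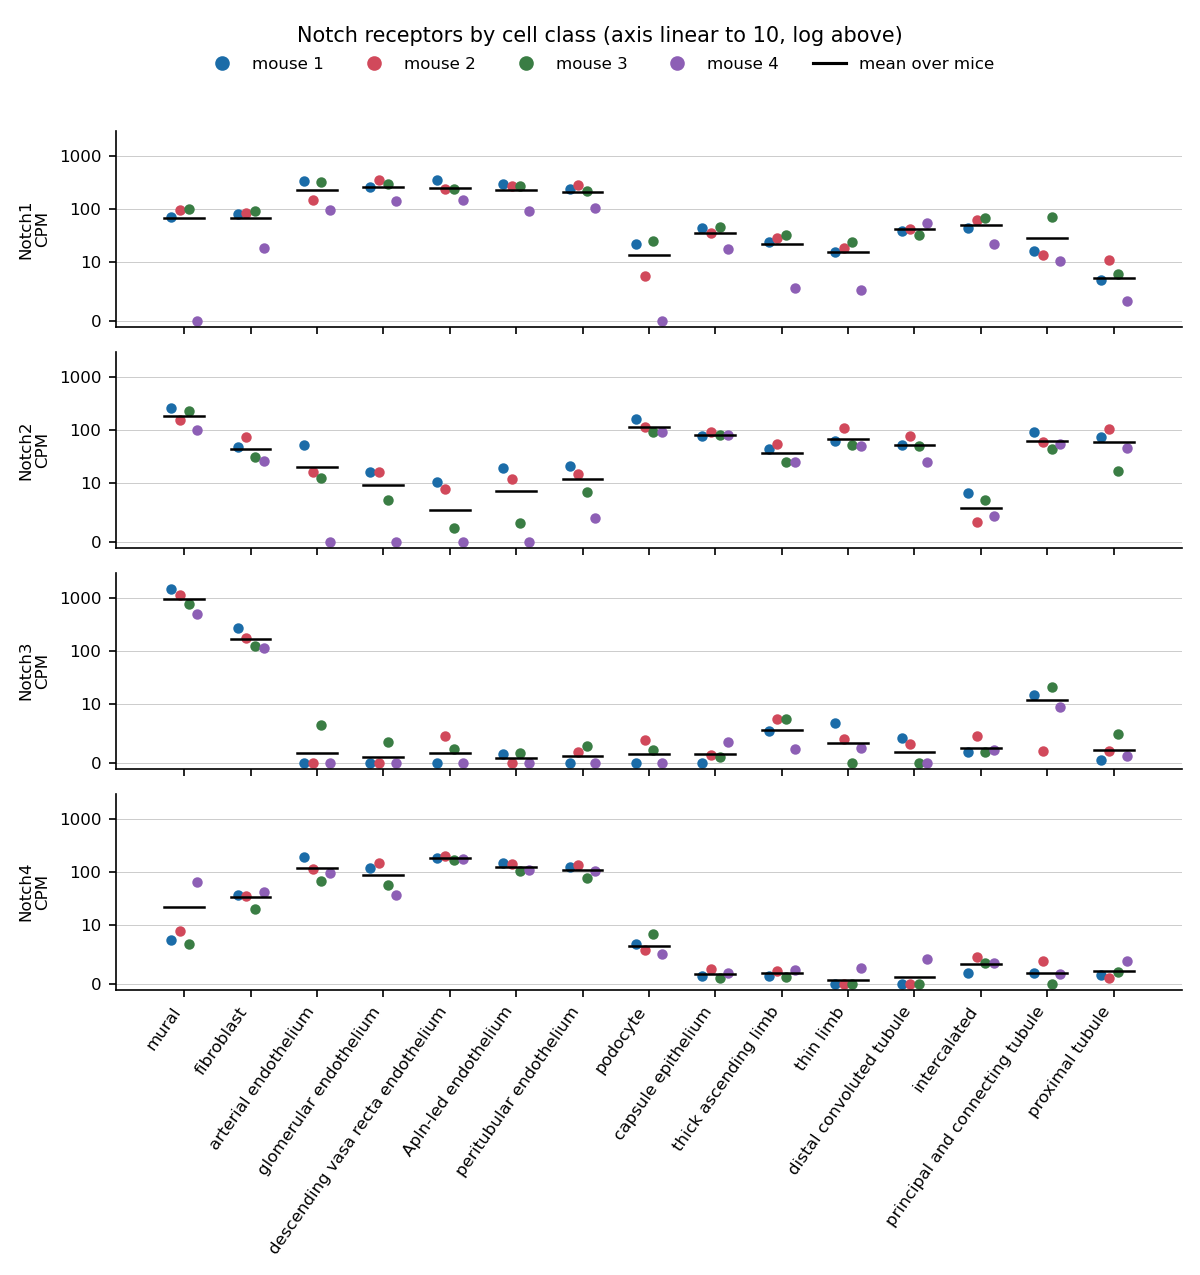
Levels of the 4 receptors in CPM (axis linear to 10, log above) in 15 cell classes; each point is 1 mouse and each bar the mean. Notch3 separates mural cells and fibroblasts from all other classes, Notch1 and Notch4 are highest in the endothelial classes, and Notch2 is lowest in endothelium and intercalated cells.

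RefSeq promoters of build GRCm38.p6 were at hand for 7 of the 10 genes. The build used for counting is not given in the sources used here, so the coordinates are those of RefSeq alone. Shown are the 250 bases before the start of Notch3 (minus strand, chr17:32166891-32167140), the mural receptor, and of Notch4 (plus strand, chr17:34564045-34564294), an endothelial one, both read 5′ to 3′ along the gene. Capitals mark the letters GGAAG or their reverse complement CTTCC, the core bound by ETS factors, which are active in endothelium.

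Notch3: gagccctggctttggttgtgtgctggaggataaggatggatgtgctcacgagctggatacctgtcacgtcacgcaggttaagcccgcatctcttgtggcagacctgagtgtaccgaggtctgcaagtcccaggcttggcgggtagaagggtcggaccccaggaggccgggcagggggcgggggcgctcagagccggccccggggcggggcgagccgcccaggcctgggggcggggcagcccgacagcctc
Notch4: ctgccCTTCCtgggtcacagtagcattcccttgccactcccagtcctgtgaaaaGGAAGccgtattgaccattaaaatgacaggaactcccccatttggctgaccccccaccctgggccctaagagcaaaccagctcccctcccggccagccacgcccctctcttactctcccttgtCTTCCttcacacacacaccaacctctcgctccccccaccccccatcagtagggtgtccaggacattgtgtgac

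The Notch3 stretch held no such letters. The Notch4 stretch held GGAAG once on the gene's strand, 196 bases before the start, and CTTCC at 245 and 73 bases before it. The letters occurred on either strand in 3 of the 7 promoters (Notch2, Notch4 and Dll4) and in 64.1% of 32851 mouse promoters of the same length. The core bound by Rbpj, TGGGAA or its reverse complement TTCCCA, occurred in 0 of the 7 and in 21.6% of all. The cores can share the letters GGAA, and no stretch printed here holds both. A match describes letters in this window and is no measure of binding.

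Among the ligands, Dll4 and Jag2 were endothelial, whereas Jag1 marked arteries, mural cells and parts of the nephron. Dll4, the ligand of arterial and sprouting endothelium, stood at 1.06, 2.63, 1.61 and 0 CPM in mural cells, against 121, 93.5, 56.9 and 70.1 in endothelial cells. The classes did not overlap, and 22 UMIs in all stood behind the mural values. Dll4 had a log2 fold change of -5.42 (SE 0.33, adjusted p = 2.7e-08). Of mural cells, 1.17% ± 0.950 had a Dll4 UMI, against 24.0% ± 11.3 of endothelial cells; thinned to 1000 UMIs, the shares were 0.225% of mural and 7.69% of endothelial cells. Jag2 stood at 3.17, 1.58, 1.61 and 0 CPM in mural cells, against 57.7, 42.0, 25.3 and 36.1 in endothelial cells. Again no values overlapped, with a log2 fold change of -4.26 (SE 0.34, adjusted p = 2.9e-07). Both values come from edgeR's quasi-likelihood test.

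Jag1 ran the other way. It stood at 303, 275, 145 and 49.2 CPM in mural cells, against 37.4, 23.4, 37.3 and 20.9 in endothelial cells, with 3 UMIs behind the mural value of mouse 4. The classes did not overlap, and the log2 fold change was 2.63 (SE 0.35, adjusted p = 3.5e-05) by edgeR's quasi-likelihood test. In the smooth muscle subclusters Jag1 averaged 341 ± 25.5 CPM (SD, n = 3 mice).

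Inside the endothelium the ligands split by vessel. Jag1 stood at 621, 411, 171 and 228 CPM in arterial endothelium, against 16.3, 14.5, 15.9 and 6.48 in peritubular endothelium. Every arterial value was above every peritubular value. Vasa recta had 108 ± 52.6 CPM, a set of subclusters led by Tspan8 had 77.9 ± 20.9, and glomerular endothelium had 7.58 ± 5.90 (SD, n = 4 mice). Jag2 stood at 189.7, 148, 41.1 and 124 CPM in arterial endothelium, against 52.5, 38.7, 11.6 and 27.3 in peritubular endothelium. It was higher in the arterial cells of all 4 mice, but the arterial value of mouse 3 lay below the peritubular value of mouse 1. The Tspan8-led cells, which carried too few of the arterial markers and stayed unnamed, had 93.7 ± 26.6 CPM of Jag2, and vasa recta had 83.8 ± 39.9.

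Dll4 spread differently over the vessels. Its highest mean, 181 ± 57.6 CPM, was in an unnamed subcluster led by Apln, Kit, Angpt2 and Esm1, the first a peptide ligand and the last a secreted proteoglycan known from sprouting tip cells. The values there were 232, 196, 98.2 and 199 in mice 1 to 4. Arterial endothelium had 414, 82.2, 75.9 and 124, glomerular 191, 177, 82.7 and 108 and peritubular 93.9, 68.5, 61.8 and 50.7 CPM. Mouse 1 set the arterial mean of 174 ± 161, which was 94.0 without it. The Apln-led cells had 6.04 CPM of Jag1 on average, against 358 ± 203 in arterial endothelium, while their Dll4 ranges overlapped.

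**Figure D2:**
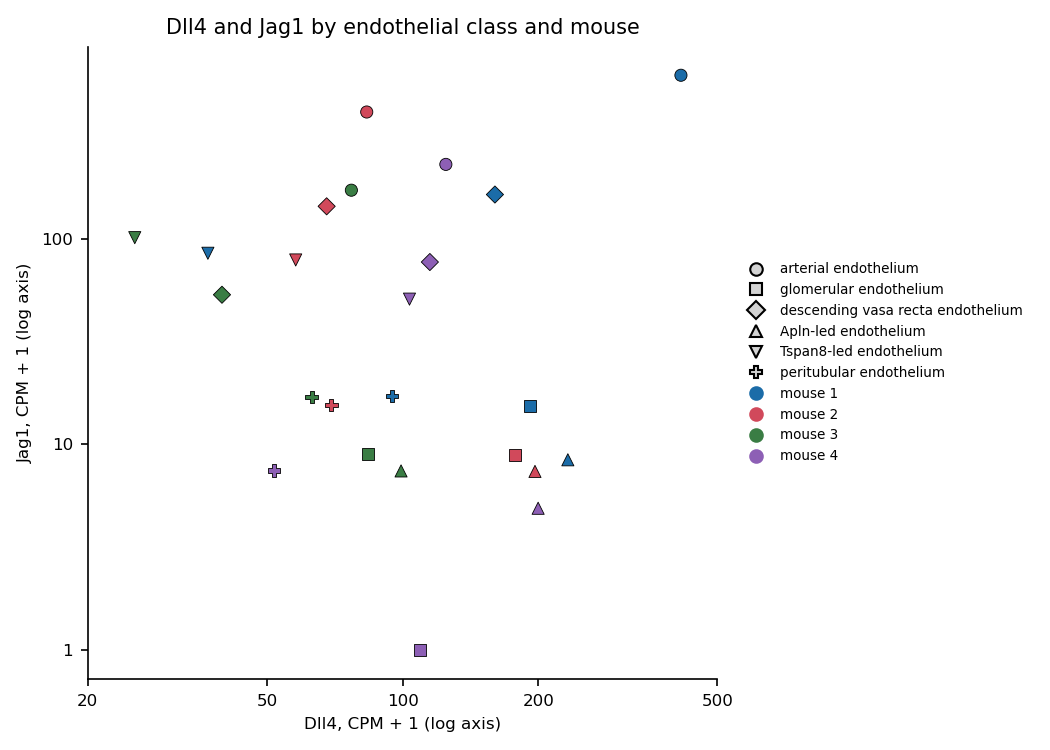
Dll4 (x axis) against Jag1 (y axis), both in CPM plus 1 on log axes, in 6 endothelial classes; each point is 1 class in 1 mouse. Arterial points lie at the top, with Jag1 at 171 to 621 CPM, whereas glomerular, Apln-led and peritubular points lie at the bottom, with Jag1 at 0 to 16.3.

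For Dll4 the 250 bases before the gene start (plus strand, chr2:119325534-119325783, RefSeq, GRCm38.p6) are shown because the 4 named endothelial classes of Dll4 did not overlap with any of the other 14 classes. Capitals mark GGAAG.

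Dll4: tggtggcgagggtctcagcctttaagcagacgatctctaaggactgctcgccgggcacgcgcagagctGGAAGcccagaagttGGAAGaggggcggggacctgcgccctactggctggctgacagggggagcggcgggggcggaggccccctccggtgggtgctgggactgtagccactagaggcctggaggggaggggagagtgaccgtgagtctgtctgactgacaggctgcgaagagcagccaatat

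GGAAG stood at 182 and 167 bases before the start, both on the gene's strand. The promoters of Jag1 and Jag2 held neither core.

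Outside the endothelium Dll4 was found in intercalated cells, the acid-base cells of the collecting duct, at 26.8, 25.9, 1.79 and 10.4 CPM (45, 23, 1 and 24 UMIs). Principal cells held 2 Dll4 UMIs in all, fibroblasts and thin limb none. The ratio of intercalated to principal cells was 69.8 with a 95% counting interval of 18.8 to 585, which covers counting error only. The summed endothelial markers were 22.4 to 170.3 CPM in intercalated and 12.3 to 49.9 in principal cells; their part in the Dll4 level was not tested.

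**Figure D3:**
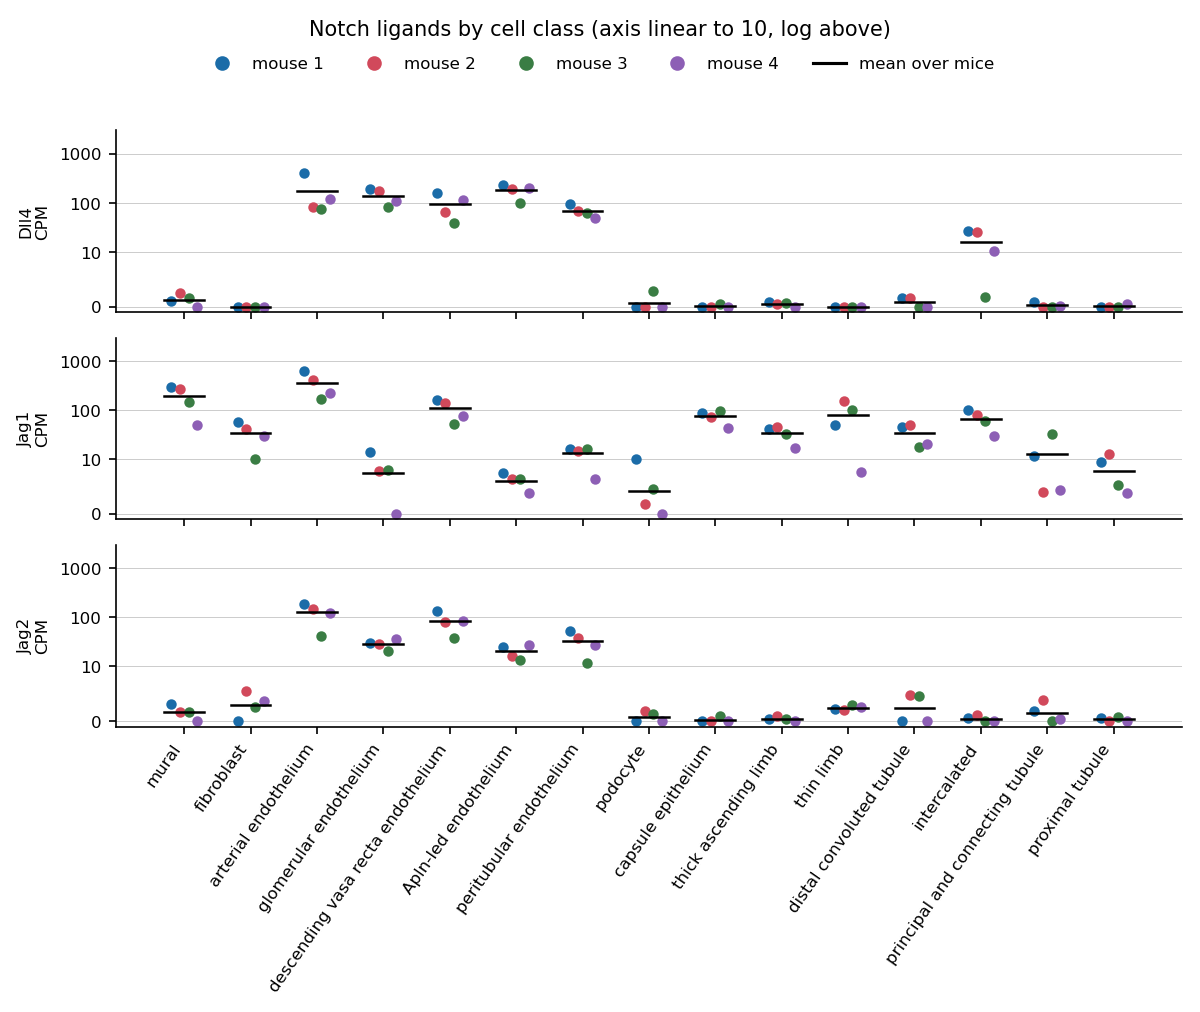
Levels of Dll4, Jag1 and Jag2 in CPM (axis linear to 10, log above) in 15 cell classes; each point is 1 mouse and each bar the mean. Dll4 and Jag2 peak in endothelial classes, with Dll4 also at 1.79 to 26.8 in intercalated cells, and Jag1 peaks in arterial endothelium and mural cells.

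The 3 targets differed in where they were found. Heyl, a repressor of the Hey family, was mural, like Notch3. It stood at 70.8, 69.3, 75.1 and 98.5 CPM in mural cells, against 0.188, 0.0840, 0.317 and 0 in endothelial cells, which held 7 UMIs in all. This difference had a log2 fold change of 8.43 (SE 0.42, adjusted p = 8.3e-09) by edgeR's quasi-likelihood test. Fibroblasts had 37.0, 29.8, 25.4 and 45.0, and mural cells, fibroblasts and the remaining classes formed 3 steps without overlap. The part of the smooth muscle markers carried by the fibroblast class was not tested for Heyl either. Of mural cells, 37.7% ± 4.93 had a Heyl UMI, against 0.0757% ± 0.0617 of endothelial cells, and thinned to 1000 UMIs the shares were 6.72% of mural and 0.00767% of endothelial cells. The smooth muscle subclusters averaged 93.5 ± 23.0 CPM (SD, n = 3 mice). No UMI of Heyl was found in arterial or vasa recta endothelium, distal convoluted tubule or podocytes.

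Hes1, a repressor used by many tissues, was found in all classes of vessel and nephron. It stood at 245, 128, 113 and 98.5 CPM in mural cells, against 133, 149.7, 46.7 and 189 in endothelial cells. The ranges overlapped and the difference did not pass the test, with a log2 fold change of 0.36 (SE 0.32, adjusted p = 0.434) by edgeR's quasi-likelihood test. The highest means were in thin limb with 228 ± 33.2, principal cells with 182 ± 73.4 and glomerular endothelium with 179 ± 60.1 CPM (SD, n = 4 mice), and these overlapped. Proximal tubule was the lowest of the nephron and vessel classes, at 23.0, 15.9, 21.2 and 19.5.

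Hey1, an arterial repressor of the same family as Heyl, was scarce. It stood at 69.0, 32.9, 0 and 19.0 CPM in arterial endothelium, from only 8 UMIs, and at 12.8, 23.7, 2.67 and 0 in glomerular endothelium. Mural cells had 3.17, 11.6, 4.74 and 0, against 3.76, 4.28, 0.825 and 1.72 in endothelial cells, and the ranges overlapped. The log2 fold change was 1.41 (SE 0.45, adjusted p = 0.0268) by edgeR's quasi-likelihood test, although Hey1 was higher in mural cells in only 2 of 4 mice. The call was lost without mouse 2 (adjusted p = 0.113), mouse 3 (0.107) or mouse 4 (0.0877), without the mouse block (0.256) and in DESeq2 (0.104). With the top doublet scores removed it was lost too (adjusted p = 0.0613), but mouse 4 then kept 6 mural cells and was not in the fit. No Hey1 UMI was found in intercalated cells, proximal tubule, thin limb or distal convoluted tubule.

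**Figure D4:**
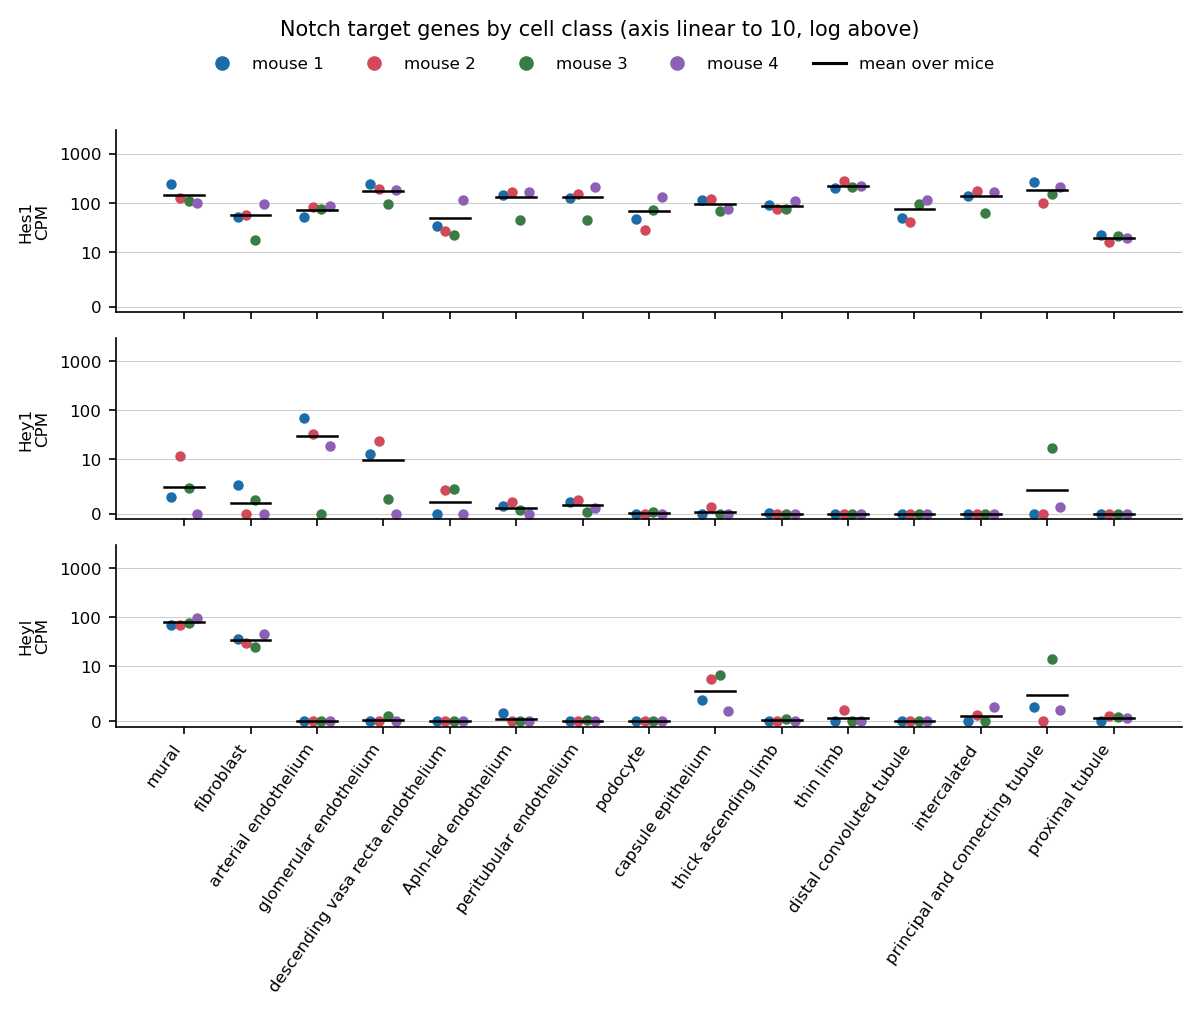
Levels of the targets Hes1, Hey1 and Heyl in CPM (axis linear to 10, log above) in 15 cell classes; each point is 1 mouse and each bar the mean. Heyl stands at 69.3 to 98.5 in mural cells and 25.4 to 45.0 in fibroblasts, Hes1 is spread over all classes, and Hey1 is mostly at or near 0.

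Counted over the mural and endothelial comparison, 9 of the 10 genes passed an adjusted p under 0.05 with an absolute log2 fold change of 1 or more, 5 higher in mural cells (Notch2, Notch3, Jag1, Hey1, Heyl) and 4 lower (Notch1, Notch4, Dll4, Jag2). By edgeR's quasi-likelihood test, 27.5% of the 12327 genes tested were called, 13.5% higher and 14.0% lower. The median log2 fold change was 0.88 over the 10 members tested, -0.38 over the other pathway genes and -0.06 over all genes. Mural cells of mouse 4 numbered 12, and without that mouse the count was 8. Of 51 other genes of the pathway, 42 were tested, 4 were called higher (Hey2, Aph1c, Numbl and Dtx3) and 7 lower (Dll1, Lfng, Mfng, Adam10, Psen2, Spen and Numb). Hey2, the third repressor of the Hey family, rose the most, with 1342 UMIs and 124 ± 67.6 CPM in mural cells against 57 UMIs and 1.70 ± 0.869 in endothelial cells and a log2 fold change of 6.24 (SE 0.45, adjusted p = 1.1e-07). Mfng, a Fringe enzyme that adds sugar to the receptors, fell by 5.10 on the log2 scale (SE 0.46, adjusted p = 8.3e-07), to 0.484 CPM in mural cells against 54.2 in endothelial cells. The ligand Dll1 fell by 5.07 (SE 0.44, adjusted p = 6.3e-07), to 0.691 CPM in mural against 27.0 in endothelial cells. Aph1c has a near-identical copy, Aph1b, and reads could be split between them. The ligand-like gene Dlk1 was not tested in this comparison. It had no UMI in mural cells and 228 in endothelial cells, of which 226 were in the glomerular class. In endothelial cells as a whole it was at least 26.3-fold higher, taking 3 UMIs over the class as the floor.

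The Hey2 promoter (minus strand, chr10:30842784-30843033, RefSeq, GRCm38.p6) is shown beside that of Notch3 because both genes were mural. Capitals mark TTCCCA, the reverse complement of the core bound by Rbpj, 207 bases before the start.

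Hey2: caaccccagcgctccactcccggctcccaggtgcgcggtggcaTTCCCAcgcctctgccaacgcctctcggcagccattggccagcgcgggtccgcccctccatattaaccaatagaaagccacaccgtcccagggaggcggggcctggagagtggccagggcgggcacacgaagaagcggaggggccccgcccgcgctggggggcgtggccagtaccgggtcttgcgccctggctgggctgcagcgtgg

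Arterial and peritubular endothelium are the conduit and the exchange vessels around the tubules. Of the 10 genes, 7 were tested between them and 2 were called, both higher in arterial cells, where 9.22% of the 9384 genes tested were called, 3.30% higher and 5.91% lower. Jag1 had a log2 fold change of 4.47 (SE 0.31, adjusted p = 1.5e-30) and Jag2 of 1.84 (SE 0.36, adjusted p = 2.2e-05) by edgeR's quasi-likelihood test. These p-values hardly reflect each gene's own spread over the mice. Dll4, at 0.95 (SE 0.32, adjusted p = 0.0366), missed the fold limit. It passed at 1.09 without mouse 2, at 1.27 without mouse 3 and at 1.05 with RLE size factors. Without mouse 3, Hes1 was called lower as well (log2 fold change -1.32, adjusted p = 0.0119), and Hey1, not tested with all mice, was called higher, which made 5 calls. Hey1 passed the filter on low counts there because the arterial cells of mouse 3, with 0 UMIs, were left out. Its arterial UMIs were 4, 2 and 2 in mice 1, 2 and 4, so that call rests on the class where it was high. Jag2 lost its call without the mouse block (adjusted p = 0.173). With thinned cells, where mouse 2 kept 9 arterial cells and dropped out as well, its adjusted p was 0.177, against 3.3e-04 at full depth without mouse 2. The arterial class held 10 and 11 cells in mice 1 and 2, and the median log2 fold changes were 0.50 over the 7 members tested, -0.29 over the other pathway genes and -0.17 over all genes.

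Of the other pathway genes, 38 were tested, 1 rose and 2 fell in arterial cells. Efnb2, an arterial ephrin ligand, had 214 ± 191 CPM in arterial against 71.8 ± 38.9 in peritubular endothelium (SD, n = 4 mice), with a log2 fold change of 1.39 (SE 0.30, adjusted p = 1.9e-04) by edgeR's quasi-likelihood test. Without the mouse block its adjusted p was 0.346. Nrarp, a feedback inhibitor that Notch itself switches on, fell by 1.71 on the log2 scale (SE 0.53, adjusted p = 0.0171), to 13.5 CPM in arterial against 53.1 in peritubular endothelium. The call was lost without mouse 1 (adjusted p = 0.0655), mouse 2 (0.0874) or mouse 3 (0.0585). Neurl1b, a ubiquitin ligase of the ligands, had 1 UMI in arterial and 597 in peritubular endothelium; the ratio of peritubular to arterial cells was 15.3 with a 95% counting interval of 2.73 to 604. The adjusted p of Neurl1b was 0.00884 and was 0.0547, 0.0569 and 0.0842 without mouse 1, 2 or 4.

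Between glomerular and peritubular endothelium, none of 7 tested members was called, where 7.63% of the 9926 genes tested were called, 3.14% higher and 4.48% lower. Dll4 and Hes1 had an unadjusted p under 0.05 in edgeR's quasi-likelihood test, and 0 were called by DESeq2. Dll4 was higher in 4 of 4 mice, at 191, 177, 82.7 and 108 CPM in glomerular against 93.9, 68.5, 61.8 and 50.7 in peritubular endothelium, and the glomerular value of mouse 3 lay within the peritubular range. The median log2 fold change was -0.10 over the 7 members tested, -0.07 over the other pathway genes and -0.06 over all genes. The log2 fold change of Dll4, 0.94 (SE 0.22, adjusted p = 0.00895) by edgeR's quasi-likelihood test, was under the fold limit, and was 1.19 without mouse 3, which made 1 call. Of 39 other pathway genes tested, 2 rose and 1 fell. Dlk1, a ligand-like inhibitor, had 226 UMIs in glomerular and 1 in peritubular endothelium, a ratio of 1955 with a 95% counting interval of 347 to 77566. Efnb2 had 336 ± 244 CPM in glomerular against 71.8 ± 38.9 in peritubular endothelium (SD, n = 4 mice) and a log2 fold change of 2.10 (SE 0.25, adjusted p = 1.7e-05) by edgeR's quasi-likelihood test, with an adjusted p of 0.168 without the mouse block. Spen, a corepressor that binds Rbpj, fell by 1.01 on the log2 scale (SE 0.24, adjusted p = 0.00987), to 95.8 CPM in glomerular against 186 in peritubular endothelium, a call lost without mouse 1 (-0.95) and without mouse 3 (-0.76).

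Mural cells and fibroblasts are the stromal neighbours of the vessels. Of 7 members tested, 5 were called, all higher in mural cells, where 15.9% of the 6179 genes tested were called, 7.20% higher and 8.69% lower. Median log2 fold changes were 1.61 over the 7 members tested, -0.22 over the other pathway genes and -0.00 over all genes. Notch3 stood at 1459.6, 1162, 759.5 and 492 CPM in mural cells, against 269, 173, 122 and 116 in fibroblasts, without overlap, and had a log2 fold change of 2.53 (SE 0.24, adjusted p = 6.1e-05) by edgeR's quasi-likelihood test. Notch2 stood at 263, 157, 226 and 98.5 in mural cells, against 47.6, 73.2, 30.5 and 26.2 in fibroblasts, also without overlap (log2 fold change 2.08, SE 0.33, adjusted p = 0.00133). Jag1 stood at 303, 275, 145 and 49.2 CPM in mural cells, against 58.1, 40.6, 10.2 and 30.0 in fibroblasts. It was higher in mural cells of all 4 mice, but its ranges overlapped (log2 fold change 2.64, SE 0.36, adjusted p = 4.9e-04). The targets Hes1 and Heyl were called too, Hes1 at 1.61 (SE 0.36, adjusted p = 0.0108) and Heyl at 1.26 (SE 0.28, adjusted p = 0.0103). Hes1 lost its call without mouse 1 (adjusted p = 0.0900) and Heyl without mouse 2 (0.0900), and both without the mouse block (0.230 and 0.153).

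Notch4 ran the other way, with 7.39, 8.93, 6.75 and 65.7 CPM in mural cells against 37.0, 35.2, 20.4 and 41.2 in fibroblasts. Its log2 fold change of -1.56 (SE 0.49, adjusted p = 0.0561) did not pass by edgeR's quasi-likelihood test, and mouse 4 was the 1 mouse in which mural cells were higher. Without mouse 4 it was -1.94 (adjusted p = 0.0130). The summed endothelial markers were 284 to 730.4 CPM in mural cells and 274 to 878 in fibroblasts, and the summed smooth muscle markers 13379 to 21356 in mural cells and 1073 to 8473 in fibroblasts, which had no Cnn1 or Pln; their part in these differences was not tested. Fibroblast markers summed to 295 to 655 in mural cells and 3760.5 to 12727 in fibroblasts. Of the 12 mural cells and 83 fibroblasts of mouse 4, 71 in all fell into a subcluster led by Wfdc2 and Umod, genes of the distal nephron, and without mouse 4 the comparison called 6 members. At clustering resolution 1.5 the fibroblast cluster held 178 cells of mouse 3, against 55 here. The smooth muscle cluster with most cells of mouse 3 then held 1098 of them, against 1226 here. The class limits in mouse 3 thus depended on the resolution. Of 27 other pathway genes tested, 2 rose (Hey2 and Nrarp) and 2 fell (Psen2 and the protease gene Furin) in mural cells. Hey2 had 1342 UMIs in mural cells and none in fibroblasts, at least 42.5-fold higher in mural cells with 3 UMIs over the class as the floor. Nrarp had 1604 UMIs in mural cells and 3 in fibroblasts, a ratio of 50.8 with a 95% counting interval of 17.3 to 246. Psen2, a catalytic subunit of gamma-secretase, fell by 1.40 on the log2 scale (SE 0.40, adjusted p = 0.0333), to 20.5 CPM in mural cells against 63.1 in fibroblasts, a call lost without mouse 1 (adjusted p = 0.199) or mouse 2 (0.116).

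**Figure D5:**
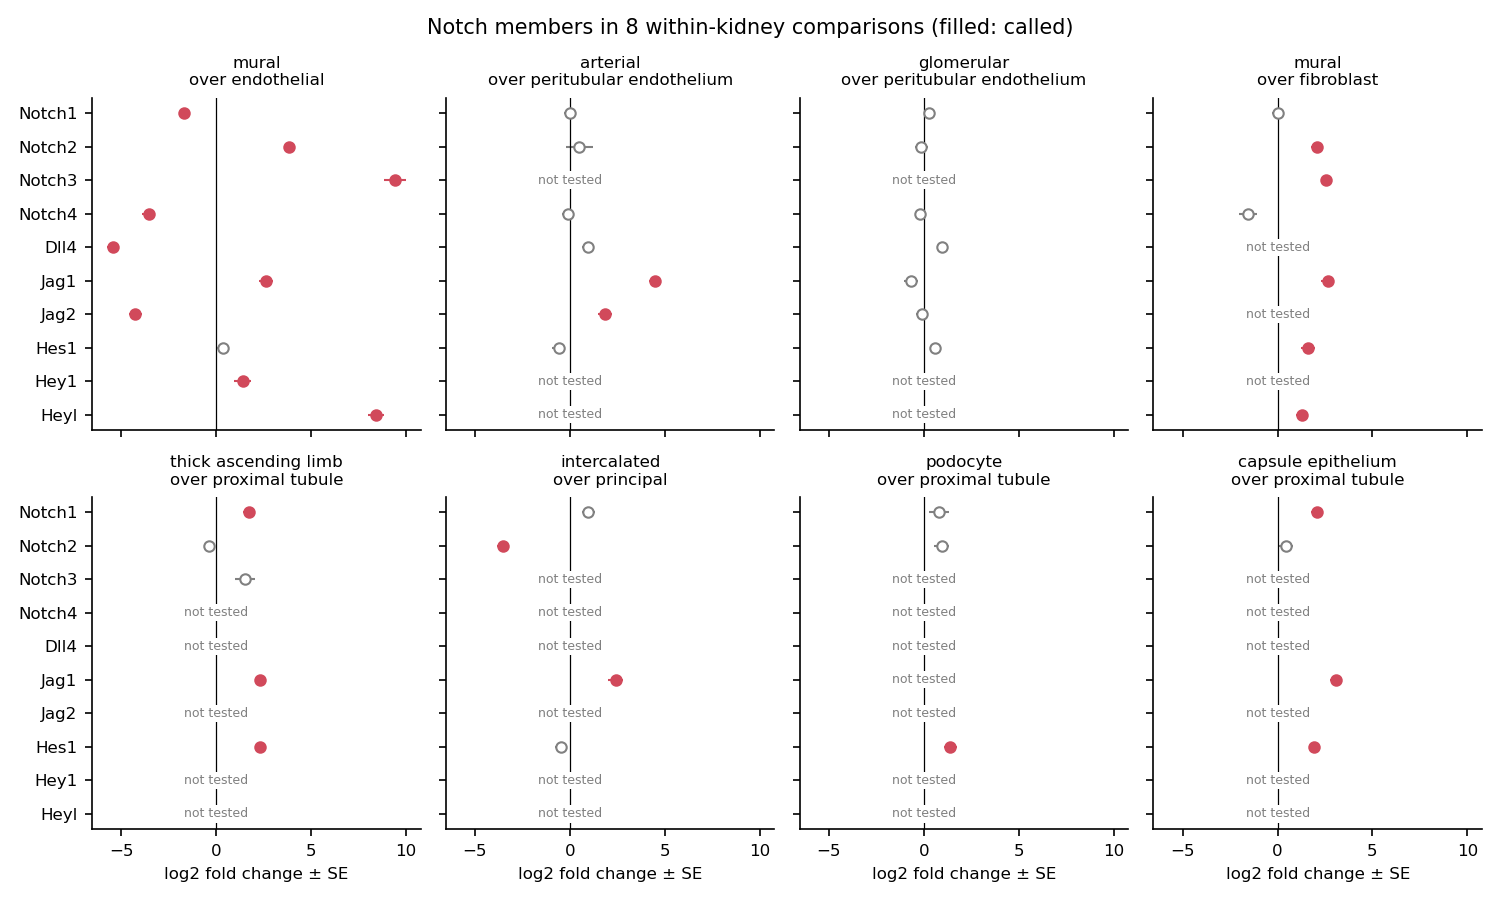
Log2 fold changes (x axis, points, with the standard error as a bar) of the tested members in the 8 comparisons of cell classes, the class named first over the class named second; a member with too few UMIs is marked as not tested. Notch3 and Heyl reach 9.42 and 8.43 in mural over endothelial cells, and Jag1 4.47 in arterial over peritubular endothelium.

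Along the nephron, the proximal tubule had the lowest mean levels of Notch1 and Hes1 of the 8 epithelial classes. The thick ascending limb, which reabsorbs salt without water, was set against the proximal tubule, which takes back most of the filtrate. Of 5 members tested, 3 were called, all higher in the thick limb, where 26.8% of the 10704 genes tested were called, 13.8% higher and 13.0% lower. The medians of the log2 fold change were 1.71 over the 5 members tested, 0.24 over the other pathway genes and 0.04 over all genes. Hes1 stood at 91.6, 76.3, 76.9 and 111 CPM in the thick limb, against 23.0, 15.9, 21.2 and 19.5 in the proximal tubule. Jag1 stood at 40.9, 44.4, 33.1 and 17.3 in the thick limb, against 9.48, 12.9, 5.29 and 3.90 in the proximal tubule. Neither gene's ranges overlapped. The log2 fold changes were 2.29 (SE 0.26, adjusted p = 3.7e-05) for Hes1 and 2.32 (SE 0.28, adjusted p = 5.4e-05) for Jag1 by edgeR's quasi-likelihood test. Notch1, at 23.6, 27.9, 31.7 and 5.52 CPM in the thick limb against 6.99, 10.9, 7.94 and 3.35 in the proximal tubule, overlapped in mouse 4 of the thick limb (log2 fold change 1.71, SE 0.30, adjusted p = 0.00108). Notch3 was low, 5.63 ± 2.39 CPM in the thick limb and 2.14 ± 1.98 in the proximal tubule (SD, n = 4 mice), and did not pass (log2 fold change 1.51, SE 0.53, adjusted p = 0.0502).

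Of 36 other pathway genes tested, 5 rose, among them Maml2, Maml3, Neurl1b and Aph1b, and 1 fell (Dtx4) in the thick limb. Maml2, a Mastermind coactivator, had 192 ± 80.9 CPM in the thick limb and 30.3 ± 16.7 in the proximal tubule (SD, n = 4 mice), with a log2 fold change of 2.85 (SE 0.35, adjusted p = 7.2e-05) by edgeR's quasi-likelihood test. Neurl1b had 17.9 ± 12.2 CPM in the thick limb and 2.55 ± 1.71 in the proximal tubule (log2 fold change 2.80, SE 0.39, adjusted p = 1.8e-04). Dtx4, a Deltex ubiquitin ligase, fell by 4.47 on the log2 scale (SE 0.46, adjusted p = 1.8e-05), with 10 UMIs and 0.926 CPM in the thick limb against 152 UMIs and 19.2 in the proximal tubule. The summed markers of injured proximal tubule, among them Spp1 and Krt8, were 19041 to 56069 CPM in the thick limb and 3706 to 10159 in the proximal tubule; their part was not tested.

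In the collecting duct, intercalated cells secrete acid or base and principal cells take up water and sodium. The class called principal also held connecting tubule cells. Before re-clustering, a cluster named for this class and led by Kcne1 and S100g held 46, 20, 148 and 280 cells of mice 1 to 4. Another, led by Sprr2f and Aqp2, held 1, 1, 0 and 469, so the mix may differ between mice. Of 4 members tested between intercalated and principal cells, 2 were called, 1 higher and 1 lower in intercalated cells. Of the 9783 genes tested, 15.0% were called, 6.89% higher and 8.07% lower. The log2 fold changes had medians of 0.24 over the 4 members tested, -0.07 over the other pathway genes and -0.02 over all genes. Notch2 stood at 8.35, 3.37, 7.17 and 4.32 CPM in intercalated cells, against 92.3, 59.0, 44.6 and 53.7 in principal cells. No values overlapped, and the log2 fold change was -3.54 (SE 0.29, adjusted p = 2.1e-05) by edgeR's quasi-likelihood test. Jag1 stood at 100.2, 79.8, 60.9 and 29.4 in intercalated cells, against 11.4, 3.93, 32.1 and 4.34 in principal cells. It was higher in intercalated cells in 4 of 4 mice, although the intercalated value of mouse 4 was below the principal value of mouse 3 (log2 fold change 2.40, SE 0.40, adjusted p = 0.00190). Hes1 did not pass, with 136 ± 52.0 CPM in intercalated and 182 ± 73.4 in principal cells (log2 fold change -0.49, SE 0.31, adjusted p = 0.311). Notch1 missed the threshold (log2 fold change 0.97, SE 0.33, adjusted p = 0.0625), and passed without mouse 3 (log2 fold change 1.40, adjusted p = 0.00378) and in DESeq2 (log2 fold change 1.05, adjusted p = 0.0488). Without mouse 3 Dll4, not tested with all mice, was called too, which made 4 calls. Dll4 passed the filter on low counts there because mouse 3, with 1 UMI in intercalated cells, was left out. Its call rests on the class where it was high.

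Mouse 3 was apart among principal cells, where Hey1 stood at 16.6 CPM against 0 to 1.24 in the other mice and Notch1 at 72.5 against 10.5 to 15.8. Hey1 had no UMI in intercalated cells and 34 in principal cells, where it was at least 7.55-fold higher with 3 UMIs over the class as the floor, and 28 of the 34 came from mouse 3. Between the kinds of intercalated cell, the subcluster led by Slc26a4, the exchanger of base-secreting cells, had 143 ± 84.5 CPM of Jag1 and 63.0 ± 26.0 of Hes1. It held only 12 cells in mouse 2 and 12 in mouse 3. The subcluster led by Aqp6, a water channel of acid-secreting cells, had 46.0 ± 22.0 of Jag1 and 162 ± 68.6 of Hes1 (SD, n = 4 mice), and this pair was not tested. Of 37 other pathway genes, 1 was called: Efnb2 fell by 2.87 in intercalated cells (SE 0.34, adjusted p = 2.2e-04 by edgeR's quasi-likelihood test), with 5.15 ± 1.51 CPM in intercalated and 42.3 ± 31.3 in principal cells.

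In the glomerulus, podocytes form the filter and capsule epithelium lines the space around it. Podocytes had 3 members tested against the proximal tubule and 1 called, where 33.4% of the 9867 genes tested were called, 14.4% higher and 19.0% lower. The median log2 fold changes came to 0.94 over the 3 members tested, 0.45 over the other pathway genes and -0.08 over all genes. Hes1 stood at 47.0, 28.3, 72.7 and 131 CPM in podocytes, against 23.0, 15.9, 21.2 and 19.5 in the proximal tubule, without overlap (log2 fold change 1.38, SE 0.34, adjusted p = 0.00599 by edgeR's quasi-likelihood test). Notch2 stood at 159, 115, 92.6 and 90.7 in podocytes, against 74.8, 105, 16.5 and 45.7 in the proximal tubule, with overlap. It did not pass (log2 fold change 0.94, SE 0.38, adjusted p = 0.0772), but passed without mouse 2 (log2 fold change 1.19, adjusted p = 0.0410), which made 2 calls. The podocyte class also carried 287 to 5182 CPM of neutrophil markers and 210.5 to 4528 of smooth muscle markers, against 106 to 662 of neutrophil and 70.4 to 181 of smooth muscle markers in the proximal tubule; their part was not tested.

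Of 35 other pathway genes tested in podocytes, 8 rose, among them Dlk2, Lfng, Aph1a, Mib2, Maml2, Maml3 and Dtx2, and 2 fell (Aph1c and Dtx3). Dlk2, a ligand-like relative of Dlk1, had 228 UMIs in podocytes and none in the proximal tubule, at least 161-fold higher in podocytes with 3 UMIs over the class as the floor. Lfng, a Fringe enzyme, had 33.7 ± 21.1 CPM in podocytes and 1.24 ± 1.25 in the proximal tubule, with a log2 fold change of 4.59 (SE 0.52, adjusted p = 1.5e-05) by edgeR's quasi-likelihood test. Aph1c, a subunit of gamma-secretase, fell by 2.88 on the log2 scale (SE 0.52, adjusted p = 6.8e-04), with 2.99 CPM in podocytes and a range of 9.59 to 38.4 in the proximal tubule.

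The capsule epithelium class held 51, 46, 156 and 80 cells in mice 1 to 4. Before re-clustering, the cluster named for it, led by Reg3g and Msln, held 299 cells, all of mouse 3. The capsule cells of the other mice thus came from clusters first named otherwise. In this class 4 members were tested against the proximal tubule and 3 were called, all higher. Of the 10134 genes tested, 20.4% were called, 11.5% higher and 8.94% lower. As medians, the log2 fold changes were 1.99 over the 4 members tested, 0.25 over the other pathway genes and -0.02 over all genes. Jag1 stood at 88.5, 72.8, 98.3 and 43.9 CPM in capsule epithelium, against 9.48, 12.9, 5.29 and 3.90 in the proximal tubule (log2 fold change 3.09, SE 0.31, adjusted p = 7.1e-05). Notch1 stood at 43.6, 35.8, 46.3 and 17.6 in capsule epithelium, against 6.99, 10.9, 7.94 and 3.35 in the proximal tubule (log2 fold change 2.05, SE 0.30, adjusted p = 7.0e-04). Hes1 stood at 115, 121, 69.9 and 77.2 in capsule epithelium, against 23.0, 15.9, 21.2 and 19.5 in the proximal tubule (log2 fold change 1.92, SE 0.28, adjusted p = 7.2e-04). None of the 3 overlapped between the classes, and all p-values are from edgeR's quasi-likelihood test. Notch2 did not pass (log2 fold change 0.43, adjusted p = 0.447). Of 35 other pathway genes tested, 5 rose (Numbl, Efnb2, Maml2, Maml3 and Aph1a) and 1 fell (Aph1c). Numbl, a relative of the Notch inhibitor Numb, had a log2 fold change of 2.97 (SE 0.47, adjusted p = 0.00118), Efnb2 of 2.79 (SE 0.38, adjusted p = 4.7e-04) and Maml2 of 1.91 (SE 0.32, adjusted p = 0.00156). Their mean levels in capsule epithelium were 16.2 CPM for Numbl, 38.2 for Efnb2 and 134 for Maml2, against 1.51 for Numbl, 4.37 for Efnb2 and 30.3 for Maml2 in the proximal tubule. Injured proximal tubule markers were 9933 to 16716 CPM in capsule epithelium and 3706 to 10159 in the proximal tubule; their part was not tested.

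The genes whose levels across cells were most like each member were found over 73 sums of 1 mouse and 1 class, from 19 classes, among 14872 genes. The measure was Pearson's r of log2(CPM + 1), which is a description, since classes of 1 mouse share a library and its depth. Notch3 was most like Trarg1 (r = 0.87), Kcnmb1, a potassium channel subunit of smooth muscle, and Gucy1b1, a subunit of soluble guanylate cyclase. Heyl was most like S1pr3 (r = 0.90), Dclk1 and Gucy1b1, so Gucy1b1 was on both lists. Notch4 was most like Fabp4 (r = 0.92), Acer2 and Fgd5, Dll4 like Ushbp1 (r = 0.91), Clec1a and Ccm2l, and Jag2 like Myrip (r = 0.87), Zfp366 and Sox17. The remaining members had lower values. Their closest genes were Bcam for Hes1 (r = 0.83), Atg7 for Notch2 (0.79), Tmem184b for Notch1 (0.78), Ano6 for Jag1 (0.75) and Gm56807 for Hey1 (0.73).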

How the data were processed

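The deposited files are 4 matrices of raw UMI counts per gene and barcode, with their gene and barcode lists. Counts were made with Cell Ranger 9.0.1, per the file headers and the submitters' processing notes, which also name Seurat 4.1.1. The genome build is not given in the sources used here, nor are filters or any handling of free RNA. These counts were used as the authors deposited them.

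From them, barcodes with at least 500 UMIs, at least 300 genes and a mitochondrial share under 50% were kept, and called doublets were removed. Cells were clustered in scanpy 1.11.5 with leidenalg 0.10.2 (2000 variable genes without any gene of the pathway, 30 components, 15 neighbours, resolution 1) and the endothelial, stromal and tubular cells again at 1.5. A cluster was named from at least 3 markers found in 20% of its cells at 2 times the rest or more; arterial cells needed over 50% of their markers. These naming thresholds were set after the clusters were seen. UMIs were summed per mouse and class (at least 10 cells) and tested with edgeR 4.0.16 in R 4.3.3 (TMM, quasi-likelihood, mouse as a block, because the classes compared come from the same mice). The fit and the adjustment ran over all genes that passed edgeR's filter on low counts. A gene was called at an adjusted p under 0.05 and an absolute log2 fold change of 1 or more. Genes with 1 to 3 UMIs in a class are given as a ratio with a 95% exact counting interval, and those with none against a floor of 3 UMIs over the class; no list's median turns on such a gene. The fitting steps were tested on simulated data.

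The genes named are the 10 members, up to 3 other called pathway genes per comparison with the largest change, and the 3 genes most like each member; those of the low-count comparisons of Dll4, Dlk1 and Hey1 were chosen after their values were seen. The members and lists were chosen with earlier results of these data known. Alternatives were RLE size factors, DESeq2 1.42.0, no filter, no block, each mouse left out, thinning to 1000 UMIs per cell, a mitochondrial limit of 20%, top doublet scores removed, and other clustering resolutions. Promoters are RefSeq's (GRCm38.p6).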

Additional observations from a re-analysis of the deposited data

Results flagged for a closer look

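In 12 of 145 groups of a gene and a class with 4 mice, 1 mouse lay far from the other 3. The rule would flag about 1 group in 20 of independent and normal values. Low counts and classes held within other classes depart from that, so the 12 cannot be weighed against chance. Mouse 4 was low for Notch1 in all endothelial cells (108 CPM against 251 to 278 in the other mice) and in the Apln-led cells (93.6 CPM against 270.5 to 297 in the other mice). It was high for Notch4 in mural cells (65.7 CPM against 6.75 to 8.93 in the other mice), and for Hes1 in the vasa recta (114 CPM against 22.8 to 34.6 in the other mice) and in Slc26a4-led intercalated cells (102 CPM against 46.1 to 53.5 in the other mice).

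Mouse 3 was high in principal cells for Notch1 (72.5 CPM against 10.5 to 15.8 in the other mice) and Hey1 (16.6 CPM against 0 to 1.24 in the other mice), and in B lymphocytes for Notch1 (88.3 CPM against 0 to 12.5 in the other mice). It was also high for Hes1 in T lymphocytes (9.98 CPM against 2.10 to 3.34 in the other mice) and neutrophils (6.17 CPM against 2.52 to 3.09 in the other mice). For Dll4, mouse 1 was high in arterial endothelium (414 CPM against 75.9 to 124 in the other mice), where it had 10 cells, and mouse 2 in Slc26a4-led intercalated cells (83.0 CPM against 7.64 to 15.2 in the other mice), where it had 12 cells.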

How the results depend on the processing

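No called fold change of a member turned its direction under an alternative that was run. Among members not called, 17 of 273 values had the other sign (Notch1 and Notch4 in arterial, Jag2 in glomerular, Notch1 in mural against fibroblast and Notch2 in capsule cells). Of all 585 values, 557 kept their side of the threshold, 13 lost and 15 gained a call. Of 544 values of other called pathway genes, 76 lost theirs and none turned. Without the mouse block, the members called were 1 in arterial cells (against 2), 3 in mural cells against fibroblasts (against 5), and 7 in mural against endothelial cells. Calls over all genes fell too, from 865 to 190 of 9384 in arterial cells and from 982 to 384 of 6179 in mural cells against fibroblasts. In mural against endothelial cells they fell from 3394 to 2029 of 12327. Without a filter the members called were 1 in glomerular and 5 in intercalated cells, where 1123 of 25469 and 2283 of 24360 genes were called. Thinned, the counts of members were 1 of 6 tested in arterial, 0 of 1 in capsule, 0 of 1 in intercalated, 1 of 1 in mural against fibroblast and 1 of 2 in thick limb cells. Over all genes, in the same order, 216 of 4332, 609 of 2650, 254 of 1430, 218 of 1033 and 1338 of 5791 were called. The thinned arterial fit had 3 mice, since mouse 2 kept 9 arterial cells. With re-clustering at resolution 2.5, an alternative chosen after seeing the data, podocytes had 2, where 3261 of 9675 genes were called. The cause of these changes was not tested.

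With each mouse left out, the members called ranged over 8 to 9 in mural against endothelial, 2 to 5 in arterial, 0 to 1 in glomerular, 4 to 6 in mural against fibroblast, 3 to 3 in thick limb, 2 to 4 in intercalated, 1 to 2 in podocyte and 3 to 3 in capsule cells. Over all genes the calls ranged over 3012 to 3733 in mural against endothelial, 650 to 886 in arterial, 612 to 906 in glomerular and 622 to 1165 in mural against fibroblast cells. They ranged over 2385 to 3412 in thick limb, 1041 to 1808 in intercalated, 2761 to 3372 in podocyte and 1609 to 2205 in capsule cells. Leaving out mouse 3 gave the highest counts in arterial, glomerular and intercalated cells, for members and for all genes alike. The mean levels in selected classes ranged over 805 to 1127 CPM for Notch3, 160.5 to 215 for Notch2 and 71.7 to 81.4 for Heyl in mural cells, 236 to 306 for Notch1 in glomerular and 178 to 188 for Notch4 in vasa recta endothelium, 94.0 to 207 for Dll4, 270.2 to 420.1 for Jag1, 104 to 154 for Jag2 and 17.3 to 40.3 for Hey1 in arterial endothelium, and 211 to 236 for Hes1 in thin limb. Thinned, Notch4 in the vasa recta was 160.5, Hes1 in thin limb 277 and Hey1 in arterial cells 0 CPM (3 mice). Few cells stood behind some values, with 10 and 11 arterial cells in mice 1 and 2, 12 mural cells in mouse 4 and 19 glomerular endothelial cells in mouse 4.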

Other observations

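Immune cells carried some members as well, and these values were not tested. Notch1 averaged 133 ± 33.1 CPM in neutrophils and 89.8 ± 49.3 in T lymphocytes (SD, n = 4 mice). Jag1 averaged 32.9 ± 28.3 CPM in macrophages and monocytes and 0.739 ± 0.869 in B lymphocytes. Hes1 was low in all 4 immune classes, with the highest mean at 15.0 ± 12.6 CPM in B lymphocytes and the lowest at 3.71 ± 1.66 in neutrophils, below the 19.9 ± 3.02 of the proximal tubule. In the distal convoluted tubule Jag1 averaged 33.8 ± 16.6 CPM and Hes1 75.6 ± 36.6.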
